A study of Mus musculus with 13 samples.

Results

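The genes described here encode 3 families of drug- and sterol-metabolising enzymes in the mouse intestine: the UDP-glucuronosyltransferases (Ugt), the sulfotransferases (Sult) and the carboxylesterases (Ces). They were chosen by name, as all probes whose gene symbol in the deposited array table began with Ugt, Sult or Ces followed by a digit. This gave 40 probes of 25697, for 30 of the 18097 gene symbols in the table: 21 Ugt probes (16 symbols), 15 Sult probes (10 symbols) and 4 Ces probes (4 symbols). Total RNA came from the proximal part of the small intestine of 13 C57BL/6J mice, all male, and was read on Illumina BeadChips of the type MouseRef-8 v2.0, 1 mouse per array. The control group was 8 mice on regular chow, and the treated group was 5 mice whose chow held 0.005% ezetimibe. The labels name no altered gene in either group, and give neither the age of the mice nor the duration of feeding. The arrays lay on 2 slides, of which slide 1 held 4 control and 2 ezetimibe arrays and slide 2 held 4 control and 3 ezetimibe arrays.

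Ezetimibe lowers cholesterol absorption by blocking the sterol transporter NPC1L1 on enterocytes, and is itself glucuronidated in the gut wall. UDP-glucuronosyltransferases are membrane enzymes of the endoplasmic reticulum that join glucuronic acid from UDP-glucuronic acid to drugs, bilirubin, steroids and bile acids, which makes them soluble enough for export. Sulfotransferases are mostly cytosolic and add a sulfonate group from the donor PAPS to phenols, catecholamines and sterols. Carboxylesterases cut ester bonds in drugs and lipids, and those of the CES2 group are the main ones of the intestine. The mouse Ugt1a locus has an unusual layout in which each gene has its own promoter and first exon and all share the remaining exons. A probe in the shared part would read several Ugt1a genes at once. The probe sequences were not used here, so which Ugt1a transcripts a Ugt1a probe reads cannot be stated.

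The promoters of 5 detected genes are shown because they carry the separate starts of the Ugt1a locus and the only matches found among detected genes to a motif searched for. Of the 30 genes, 27 had a promoter window in the RefSeq table of assembly GRCm38.p6, and 12 of these were detected on the arrays. Each sequence is the 250 bases before a transcription start, 5′ to 3′ on the strand of the gene. Capitals mark the letters GCGTG, the core of the element bound by AHR and ARNT, or their reverse complement.
Sult2b1, first window, chr7:45742479-45742728, minus strand: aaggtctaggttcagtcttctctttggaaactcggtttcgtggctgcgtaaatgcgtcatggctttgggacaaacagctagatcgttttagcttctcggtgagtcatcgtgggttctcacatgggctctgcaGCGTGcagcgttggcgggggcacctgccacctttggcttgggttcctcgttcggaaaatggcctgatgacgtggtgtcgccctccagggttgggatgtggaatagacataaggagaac
Sult2b1, second window, chr7:45759613-45759862, minus strand: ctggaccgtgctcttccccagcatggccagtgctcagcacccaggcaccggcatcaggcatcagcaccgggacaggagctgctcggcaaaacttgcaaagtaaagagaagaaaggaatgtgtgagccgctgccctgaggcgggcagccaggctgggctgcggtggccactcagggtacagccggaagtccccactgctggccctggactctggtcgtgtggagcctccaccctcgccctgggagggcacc
Sult1d1, chr5:87569007-87569256, minus strand: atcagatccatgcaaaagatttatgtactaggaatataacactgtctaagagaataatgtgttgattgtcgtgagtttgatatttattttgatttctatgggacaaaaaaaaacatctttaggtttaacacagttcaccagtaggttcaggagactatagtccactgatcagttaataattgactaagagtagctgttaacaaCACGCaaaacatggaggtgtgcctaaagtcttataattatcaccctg
Ugt1a10, chr1:88055161-88055410, plus strand: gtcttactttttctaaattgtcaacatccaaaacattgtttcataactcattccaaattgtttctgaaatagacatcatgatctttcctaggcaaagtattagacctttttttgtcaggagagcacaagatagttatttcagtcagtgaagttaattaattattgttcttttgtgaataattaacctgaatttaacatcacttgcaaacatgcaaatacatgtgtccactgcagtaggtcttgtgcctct
Ugt1a6a, chr1:88134559-88134808, plus strand: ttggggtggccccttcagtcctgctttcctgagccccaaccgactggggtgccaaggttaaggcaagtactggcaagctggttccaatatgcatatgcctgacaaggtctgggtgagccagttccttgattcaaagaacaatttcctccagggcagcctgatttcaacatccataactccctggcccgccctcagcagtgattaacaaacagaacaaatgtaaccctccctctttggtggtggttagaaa
Ugt1a2, chr1:88200361-88200610, plus strand: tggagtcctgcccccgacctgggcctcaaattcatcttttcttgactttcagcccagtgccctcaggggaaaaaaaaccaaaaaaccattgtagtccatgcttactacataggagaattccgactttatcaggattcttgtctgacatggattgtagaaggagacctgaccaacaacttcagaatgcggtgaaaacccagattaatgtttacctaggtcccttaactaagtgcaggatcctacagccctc

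GCGTG was present on either strand in 2 of the 13 windows of detected members (15.4%), those of Sult1d1 and the first Sult2b1 window. Over all 29 member windows it was in 4 (13.8%), the other two being those of the undetected genes Sult1b1 and Ugt8a. It was held by 28.2% of all 32851 windows in RefSeq. The letters TGACNNNGC, the core of the antioxidant response element, were found on either strand in 0 of the 29 member windows and in 10.2% of all windows. The windows of Ugt1a10, Ugt1a6a and Ugt1a2 held neither set of letters.

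All 3 families had members with a detected probe in the proximal intestine and members without one. A probe was counted as detected where its detection p-value was under 0.05 on at least 5 of 13 arrays, whatever the group. This held for 19 of the 40 probes (47.5%), against 46.3% of all probes on the array. By family, it held for 10 of 21 Ugt probes, 7 of 15 Sult probes and 2 of 4 Ces probes. The 19 probes stood for 14 genes: Ugt1a2, Ugt1a6a, Ugt1a10, Ugt2a3, Ugt2b34, Ugt2b35 and Ugt2b36, then Sult1a1, Sult1c2, Sult1d1, Sult2b1 and Sult4a1, then Ces3 and Ces5. Of the 40 probes, 16 were detected on all 13 arrays, as were 34.7% of all probes. The arrays detected between 17 and 21 member probes each.

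**Figure D1:**
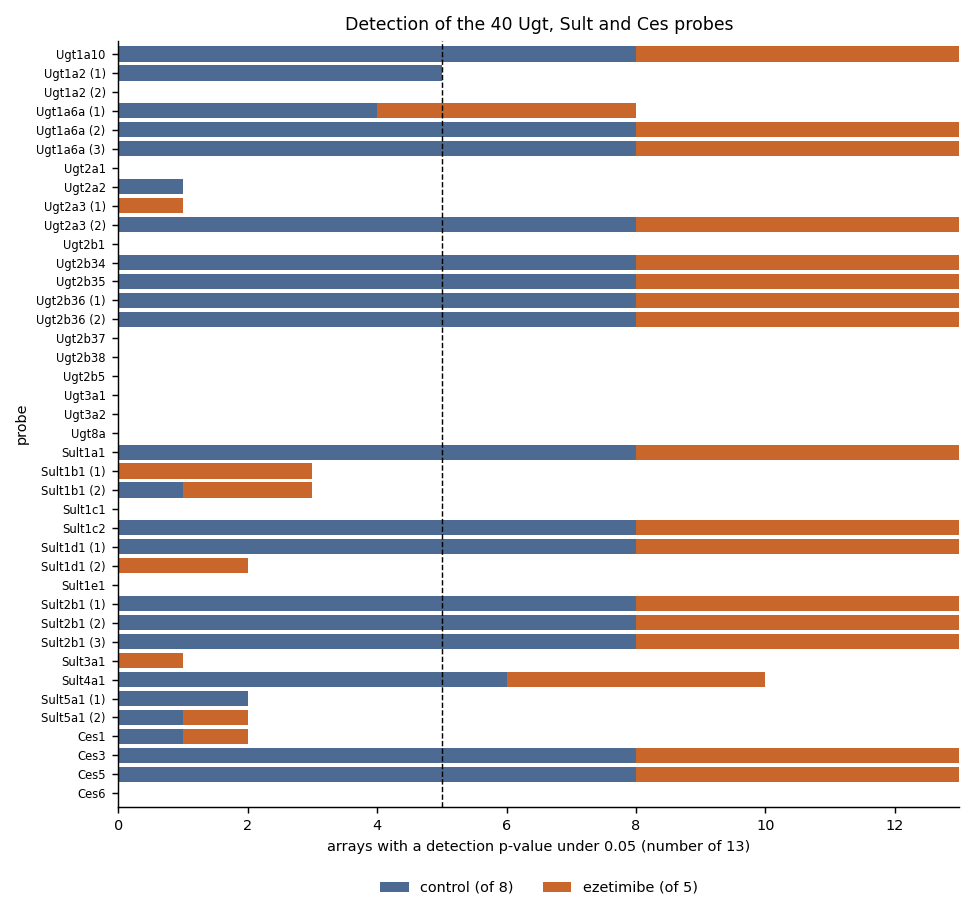
Number of arrays, of 13, with a detection p-value under 0.05 for each of the 40 probes, control arrays in blue and ezetimibe arrays in orange. Probes of the same gene are numbered from the lowest probe identifier, and the dashed line marks the 5 arrays a probe needed. The 16 full-length bars are the probes detected on every array, and 12 probes have no bar.

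The 21 probes below that limit stood for 16 genes with no detected probe and for a further probe of Sult1d1, Ugt1a2 and Ugt2a3. No array detected the probes of Ugt2a1, Ugt2b1, Ugt2b5, Ugt2b37, Ugt2b38, Ugt3a1, Ugt3a2, Ugt8a, Sult1c1, Sult1e1 and Ces6, nor the second Ugt1a2 probe. These 12 probes compare with 31.6% of all probes on the array, and their signals lay between 104.8 and 152.3. They include Sult1e1, the estrogen sulfotransferase, and Ugt8a, which makes the galactosylceramide of myelin. The other 9 probes were each detected on 1 to 4 arrays. Both probes of Sult1b1, a sulfotransferase of thyroid hormones, were detected on 3 arrays, the one on 3 ezetimibe arrays and the other on 1 control and 2 ezetimibe arrays. The Ces1 probe and a Sult5a1 probe were each detected on 1 control and 1 ezetimibe array, and the other Sult5a1 probe on 2 control arrays. The second Sult1d1 probe was detected on 2 ezetimibe arrays, and the Sult3a1 probe and the Ugt2a3 probe ILMN_2714195 on 1 ezetimibe array each. The Ugt2a2 probe was detected on 1 control array. No detection on an array says that the signal there was within the range of its negative controls, not that the transcript was absent.

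The families cluster in the genome, and genes that lie side by side differed in whether they were detected. In the RefSeq gene order of GRCm38.p6, 13 Ugt2 and Sult1 genes form an unbroken run on chromosome 5, with 0 other protein-coding genes between them. All 13 had a probe, and 5 were detected: Ugt2b34, Ugt2b35, Ugt2b36, Ugt2a3 and Sult1d1. Of all probes on the array 46.3% were detected. Ugt2b1 lies between Ugt2b34 and Ugt2b35 and was detected on no array, and neither were Ugt2b5 and Ugt2b37, which lie between Ugt2b36 and Ugt2a3. At the other end of the run, Sult1d1 was detected on all 13 arrays by its brighter probe, between Sult1b1 and Sult1e1, which were not detected. Detection also differed between probes of the same gene. The dimmer Sult1d1 probe was detected on 2 arrays, and the Ugt2a3 probes on 13 and 1. A difference between neighbours may therefore lie in the probes.

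Some names on the array are old. The symbols of 36 member probes are current, and 3 were renamed through a synonym: Ces1 is now Ces1g, Ces5 is Ces2e and Ces6 is Ces2a. Ces3 is listed as a synonym of both Ces1d and Ces3a and keeps the name in the file. Ugt1a10 is also an old synonym of Ugt1a7c, and Sult1c1 of Sult1c2. Members of these families are close paralogs, so a probe may read more than the gene it is named for.

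Ezetimibe was compared with control in a linear model with a term for slide, fitted with limma over the 11887 probes detected on the arrays. Levels below are log2 intensities with the fitted difference between slides taken out, and changes are log2 fold changes, ezetimibe over control, with the standard error of the fit. At an adjusted p under 0.10, Benjamini-Hochberg over all tested probes, 0 of the 19 detected member probes passed. Of all tested probes 0.252% passed, 30 in number, of which 28 were higher with ezetimibe (0.236%) and 2 lower (0.0168%). At an unadjusted p under 0.05, 1 member probe passed, a probe of Ugt1a6a, against 6.18% of all tested probes. The adjusted p of the members lay between 0.745 and 0.999. In tissue RNA of this kind, fewer cells of a type and less RNA per cell cannot be told apart.

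For every detected member probe but that of Ugt1a2, which no ezetimibe array detected and whose interval is therefore not read as a limit, the 95% confidence interval of the fold change stayed within 2-fold either way. The same held for 98.1% of all tested probes. For 13 of the 19, Ugt1a2 not among them, it stayed within 1.5-fold, against 86.1%. The log2 fold change was above 0 for 13 of the 19 probes, with the fitted value of Ugt1a2 among those below 0. With the brightest probe of each gene, the median was 0.20 over the 7 Ugt genes, 0.10 over the 5 Sult genes and 0.027 over the 2 Ces genes, beside -0.0010 over all tested probes. The 7 include Ugt1a2. With a detection p under 0.01 required on all arrays, which leaves Ugt1a2 out, the Ugt median was 0.21. Position on the slide was uneven between groups: on slide 1 the control arrays were at positions 1 to 4 and the ezetimibe arrays at 5 and 7, and on slide 2 they were at 1, 3, 4 and 6 and at 2, 5 and 7. With position as a covariate the medians were 0.0014 for Ugt, 0.28 for Sult and -0.017 for Ces, so the order of the families is not settled. In none of the 19 did the levels of both groups separate without overlap, which they did for 0.623% of all tested probes. Fitted on each slide alone, 7 of the 19 had opposite signs on the slides.

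**Figure D2:**
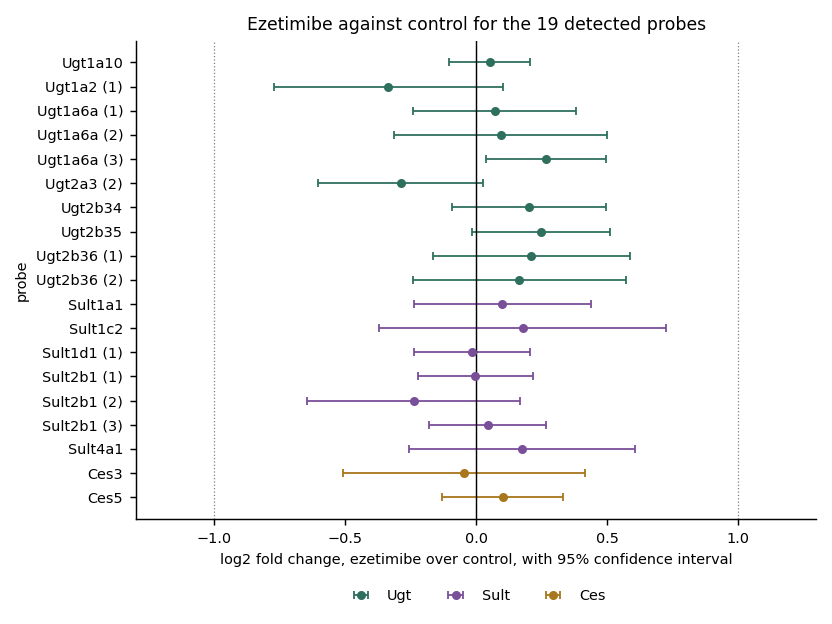
Log2 fold change, ezetimibe over control, of the 19 detected probes with its 95% confidence interval, coloured by family. Dotted lines mark 2-fold either way, and every interval lies between them, that of Ugt1a2 resting on ezetimibe arrays that did not detect it. The Ugt1a6a probe numbered 3 (ILMN_2795317) is the one whose interval lies wholly above 0.

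Among the UGT1 genes, Ugt1a6a, whose human counterpart glucuronidates small planar phenols, had the smallest unadjusted p of all members. Its brightest probe (ILMN_2795317) read 7.86 at the lowest, 8.16 at the median and 8.32 at the highest of the 8 control mice. The 5 ezetimibe mice read 8.28, 8.60, 8.19, 8.42 and 8.47. Of these, 3 lay above every control and the other 2 within the control range. The difference was 0.27 ± 0.11 (SE), a 1.20-fold change with a 95% interval of 1.03 to 1.41, with an unadjusted p of 0.0258 and a limma adjusted p of 0.745. Across the settings tried the difference ran from 0.12 (limma adjusted p = 0.849), with position as a covariate, to 0.43, with the replicate block, and the lowest adjusted p was 0.453, without ezetimibe 1.

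The other Ugt1a6a probes gave smaller differences. The probe ILMN_2418855 ran from 6.58 to 7.67 in control mice and stood at 7.60, 7.18, 6.87, 7.32 and 7.46 in ezetimibe mice, a difference of 0.093 ± 0.19 (limma adjusted p = 0.969). The probe ILMN_1212835 was dim, with detection on 4 control and 4 ezetimibe arrays, and differed by 0.070 ± 0.15 (limma adjusted p = 0.970). All ezetimibe values of ILMN_2418855 and 3 of those of ILMN_1212835 lay within the control range.

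Ugt1a10, whose human counterpart is an enzyme of the gut and is scarcely made in liver, had a bright probe on every array, with signals from 6667.5 to 13833.9. Its highest and lowest levels over the 13 mice were 1.33-fold apart, the smallest range among the 19 probes. It stood at 13.16, 13.34 and 13.43 for the lowest, median and highest control. Under ezetimibe it read 13.39, 13.31, 13.14, 13.56 and 13.40. One ezetimibe mouse lay just above the controls and another just below. The difference was 0.053 ± 0.073, with a 95% interval of 0.932-fold to 1.15-fold and a limma adjusted p of 0.948.

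Ugt1a2 was detected in control mice alone, at the edge of detection. Its probe ILMN_1214888 was detected on 5 of 8 control arrays and 0 of 5 ezetimibe arrays, and so entered the test only through the controls. Control levels were 4.37, 5.02 and 5.67 at the lowest, median and highest, and ezetimibe levels were 4.63, 4.63, 4.61, 4.73 and 4.75. All 5 ezetimibe values lay inside the control range, which was the wider one, with an SD of 0.48 against 0.06. The fitted difference was -0.34 ± 0.21 (limma adjusted p = 0.854), and its size moved with the background handling, to -0.071 with no background correction and -0.036 in the deposited processed values. Since no ezetimibe array detected the probe, its level there is only an upper limit, and the fitted value is not a measured fold change. A second Ugt1a2 probe was detected on no array of either group.

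Among the UGT2 genes, which as a subfamily glucuronidate steroids, bile acids and many drugs, 3 Ugt2b genes lay on the high side with ezetimibe and Ugt2a3 on the low side, none past the threshold. Ugt2b35 read 7.19, 7.80 and 8.04 at the lowest, median and highest control, and 7.97, 8.10, 7.93, 7.83 and 7.94 under ezetimibe. Only 1 ezetimibe mouse exceeded all controls, although 3 exceeded all controls of their own slide. The difference was 0.25 ± 0.12 (limma adjusted p = 0.828).

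Ugt2b34 was the member with the largest gap between slides, 1.52 lower on slide 2 on the log2 scale. After slide adjustment it read 6.17, 6.64 and 6.76 at the lowest, median and highest control and 6.86, 7.08, 6.50, 6.60 and 6.78 under ezetimibe. The 3 ezetimibe mice above all controls came from both slides. The difference was 0.20 ± 0.14 (limma adjusted p = 0.867), and its parts were 0.51 ± 0.20 on slide 1 and -0.038 ± 0.17 on slide 2.

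Ugt2b36 had a pair of probes. The brighter (ILMN_1235719) read 8.23, 8.78 and 9.44 at the lowest, median and highest control and 9.25, 8.95, 8.80, 9.20 and 9.21 under ezetimibe, all inside the control range. It differed by 0.21 ± 0.18 (limma adjusted p = 0.904) and the dimmer by 0.17 ± 0.19 (limma adjusted p = 0.934).

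Ugt2a3, whose human counterpart glucuronidates bile acids, gave 6.06, 6.27 and 6.76 at the lowest, median and highest control. Its ezetimibe values were 5.94, 6.21, 5.92, 6.38 and 5.72. Here 3 ezetimibe mice lay below every control and the other 2 within the control range. The difference was -0.29 ± 0.15, 0.819-fold with a 95% interval of 0.657 to 1.02 (limma adjusted p = 0.829), and it was below 0 on both slides (-0.23 ± 0.22 and -0.34 ± 0.21).

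**Figure D3:**
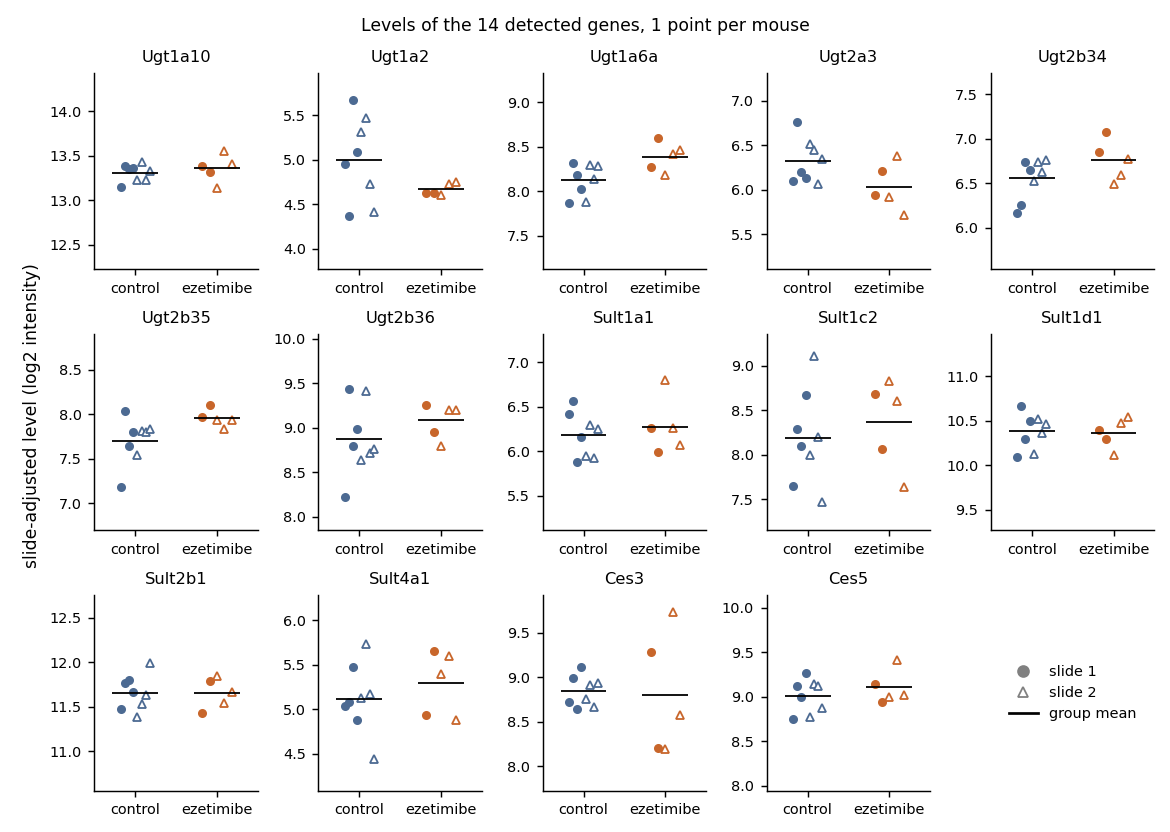
Slide-adjusted level (log2 intensity) of the brightest probe of each of the 14 detected genes, 1 point per mouse, with filled circles for slide 1, open triangles for slide 2 and a line at the group mean. Every panel spans the same number of log2 units around its own centre. In the Ces3 panel the 5 ezetimibe points fall above and below all control points, and in the Ugt1a2 panel they sit close together inside the control range. In the other 12 panels some ezetimibe points lie among the control points.

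Sult2b1, which sulfates cholesterol and other hydroxysteroids, was detected by 3 probes on all 13 arrays. Its brightest probe (ILMN_2686353) read 11.38, 11.65 and 11.99 at the lowest, median and highest control and 11.43, 11.80, 11.85, 11.54 and 11.67 under ezetimibe. Every ezetimibe value lay within the control range. The difference was -0.0029 ± 0.10 with a 95% interval of 0.857-fold to 1.16-fold (limma adjusted p = 0.999).

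Another Sult2b1 probe (ILMN_2791179) differed by 0.044 ± 0.11 (limma adjusted p = 0.974), with values of 10.28, 10.83, 10.81, 10.60 and 10.55 under ezetimibe against 10.25 to 10.81 in control mice. The remaining one (ILMN_2766827) differed by -0.24 ± 0.19 (limma adjusted p = 0.895). It was spread widely in control mice, with 8.10, 8.90 and 9.41 at the lowest, median and highest, and narrowly in ezetimibe mice, at 8.73, 8.66, 8.40, 8.77 and 8.76. All ezetimibe values of that probe lay inside the control range.

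Sult1d1, a mouse sulfotransferase of catecholamines, read 10.09, 10.42 and 10.67 at the lowest, median and highest control and 10.40, 10.29, 10.11, 10.48 and 10.54 under ezetimibe. All ezetimibe values lay within the control range, and the difference was -0.015 ± 0.10 (limma adjusted p = 0.992).

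Sult1a1, the phenol sulfotransferase, read 5.88, 6.20 and 6.56 at the lowest, median and highest control. The ezetimibe mice stood at 6.26, 5.99, 6.80, 6.26 and 6.08, of which only ezetimibe 3 exceeded the controls. The difference was 0.10 ± 0.16 (limma adjusted p = 0.958), and its sign was opposite on the slides (-0.13 ± 0.22 on slide 1 and 0.28 ± 0.21 on slide 2).

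Sult1c2 was the most variable Sult gene. Across the 13 mice its lowest and highest levels were 3.13-fold apart, with 7.47, 8.15 and 9.11 at the lowest, median and highest control and 8.69, 8.07, 8.82, 8.60 and 7.64 under ezetimibe. All ezetimibe values lay within the control range, and the difference was 0.18 ± 0.26 (limma adjusted p = 0.951). Its 95% interval, 0.774-fold to 1.65-fold, was the widest among the 19 probes on the log2 scale.

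Sult4a1, a sulfotransferase best known from brain, was dim and was detected on 6 control and 4 ezetimibe arrays. Its levels were 4.44, 5.10 and 5.73 at the lowest, median and highest control and 4.93, 5.65, 5.39, 5.60 and 4.87 under ezetimibe, all within the control range. The difference was 0.18 ± 0.20 (limma adjusted p = 0.934).

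The detected carboxylesterases were Ces5 (now Ces2e, of the intestinal CES2 group) and Ces3. Ces5 read 8.75, 9.06 and 9.27 at the lowest, median and highest control and 9.15, 8.95, 9.002, 9.41 and 9.01 under ezetimibe. Only ezetimibe 4 lay above the controls, and the difference was 0.10 ± 0.11 (limma adjusted p = 0.926).

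Ces3 had nearly the same mean in both groups but not the same scatter. The control mice read 8.65, 8.83 and 9.11 at the lowest, median and highest, and the ezetimibe mice read 9.28, 8.20, 8.19, 9.73 and 8.57. Of the 5 ezetimibe mice 2 lay above every control and 3 below every control, on both slides, so none fell inside the control range. The group means were 8.84 ± 0.17 (SD, n = 8) and 8.80 ± 0.68 (SD, n = 5), and the difference of means was -0.047 ± 0.22 (limma adjusted p = 0.986).

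Probes of the same gene agreed for Ugt2b36 and for a pair of Sult2b1 probes, and the other pairs showed no detectable relation. Over the 13 mice, slide-adjusted levels of the Ugt2b36 probes correlated with Pearson's r = 0.944 and Spearman's rho = 0.896. In a two-sided permutation test with 100000 resamples, p was 1e-05 for r, the smallest these resamples can give, and 9e-05 for rho, or 7e-05 and 0.00063 adjusted over the 7 pairs examined. Without the 2 mice farthest from the median r was 0.876, and it was 0.983 within slide 1 and 0.881 within slide 2. Control 1 was the lowest of the 13 mice on both probes.

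The Sult2b1 probes ILMN_2686353 and ILMN_2791179 correlated with r = 0.844 and rho = 0.802, with permutation p of 0.00025 and 0.00148 (adjusted 0.000875 and 0.00518). Without the 2 farthest mice r was 0.765, and it was 0.847 within each slide. The remaining Sult2b1 probe, ILMN_2766827, correlated with these at r = 0.420 (rho = 0.225) and r = 0.303 (rho = 0.269), with adjusted permutation p of 0.267 and 0.438 for r and 0.588 for both rho. Within slides 1 and 2 these r were 0.448 and 0.448, then 0.327 and 0.301, and they were 0.184 and 0.229 without the 2 farthest mice. Sult2b1 has the 2 annotated starts whose promoters are printed above. Which transcript each probe reads was not examined here.

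For Ugt1a6a the 3 pairs had r of 0.451, -0.121 and 0.0567 and rho of 0.242, -0.203 and 0.132. Their adjusted permutation p were 0.267, 0.804 and 0.852 for r and 0.588, 0.588 and 0.669 for rho. Within slide 1 the r were 0.335, 0.579 and 0.860, within slide 2 they were 0.647, -0.473 and -0.378, and without the 2 farthest mice -0.087, -0.32 and -0.089. The smallest unadjusted p of the family thus rests on 1 of 3 probes under the Ugt1a6a name.

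**Figure D4:**
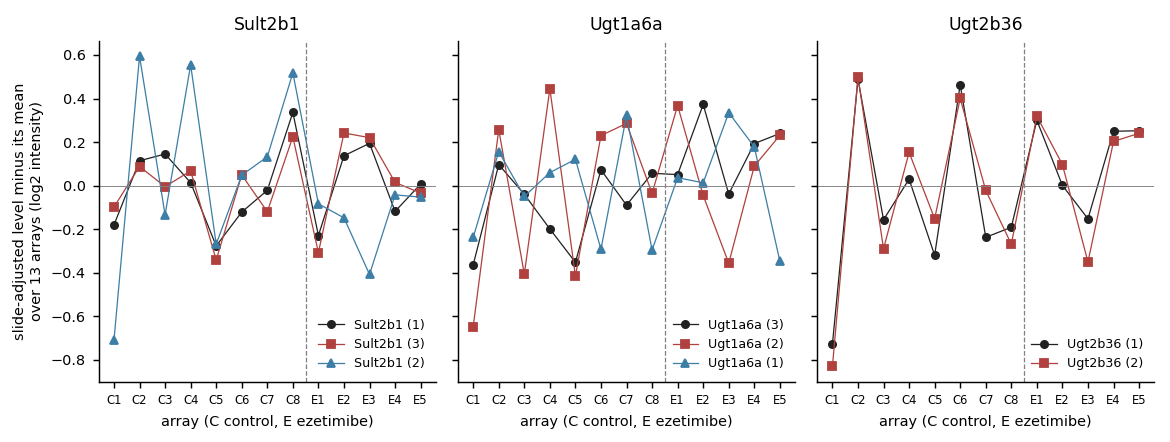
Slide-adjusted level of each detected probe of Sult2b1, Ugt1a6a and Ugt2b36 in the 13 arrays (C1 to C8 control, E1 to E5 ezetimibe), minus the mean of that probe over the arrays, in log2 units. The lines join points of one probe and stand for no order of the mice. The Ugt2b36 curves run together (r = 0.944), as do those of the Sult2b1 probes numbered 1 and 3 (r = 0.844), and those of Ugt1a6a do not.

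More members passed the threshold between slides than between diets. Between slides 9 of the 19 probes differed at an adjusted p under 0.10, 7 of them lower on slide 2, against 53.3% of all tested probes, with 24.5% lower. After Ugt2b34 the largest gap was that of the Sult2b1 probe ILMN_2791179, 0.81 lower on slide 2 (limma adjusted p = 2.08e-05). Median signals were 146.9 to 152.8 on slide 1 and 120.7 to 127.9 on slide 2, and the number of probes detected per array was 11705 to 12380 and 11085 to 11646. Both slides held both groups, and slide was in the model.

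Genes of conjugate supply, removal and regulation, and other lipid and ester hydrolases, did not pass the test either. A list of 48 such genes, chosen with earlier results of these data known, had 33 with a detected probe. They were 5 genes for UDP-glucuronic acid supply (3 with a probe, 1 detected), 12 for PAPS and sulfate supply (7 detected) and 6 for removal of conjugates (5). The rest were 13 other lipid and ester hydrolases (11 detected) and 12 regulators (11 with a probe, 9 detected). Where no number with a probe is given, every gene had one. Of the 33 detected genes 0 rose and 0 fell in limma, against 0.252% of all tested probes called. An unadjusted limma p under 0.05 held for 2 of the 33, against 6.18% of all tested probes. The median log2 fold change was 0.013. The 2 were Ugp2, which makes UDP-glucose, the precursor of UDP-glucuronic acid, and Ephx1, the microsomal epoxide hydrolase. Ugp2 was 7.86 ± 0.23 (SD, n = 8) in control and 8.21 ± 0.15 (SD, n = 5) in ezetimibe mice, a difference of 0.34 ± 0.12 (limma adjusted p = 0.632, the lowest of the list). Ephx1 differed by 0.39 ± 0.18 (limma adjusted p = 0.784).

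For the sulfate donor, Papss2 and Papss1, the synthases of PAPS, differed by -0.12 ± 0.097 and -0.051 ± 0.082 (limma adjusted p = 0.895 and 0.958), and 0 of 7 detected genes of that group passed. Among 5 detected enzymes that remove conjugates, the sulfatases Arsa and Arsb differed by 0.22 ± 0.13 and -0.16 ± 0.11 (limma adjusted p = 0.846 and 0.867). Of 11 detected lipid and ester hydrolases, Lipa, the lysosomal acid lipase, followed Ephx1 with 0.29 ± 0.16 (limma adjusted p = 0.840). Of 9 detected regulators, the intestinal transcription factors Hnf4a and Cdx2 differed by 0.18 ± 0.088 and 0.31 ± 0.17 (limma adjusted p = 0.828 and 0.838). Ahr and Ppara, receptors that control conjugation genes, had no detected probe, and neither did Ugdh, which makes UDP-glucuronic acid.

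Markers of the tissue and of its neighbours were read beside these results. Of 8 enterocyte markers with a probe 6 were detected, with a mean level of 12.84 to 13.20 in control and 12.93 to 13.11 in ezetimibe mice, while the probes of the fatty acid binding proteins Fabp1 and Fabp2 were not detected. Of 10 hepatocyte markers only Cps1 and Ttr were detected, and Alb, Ahsg, F2, Fgb, Serpina1a, Serpinc1, Apoh and Hpx were not. All 12 exocrine pancreas markers with a probe were detected, and their mean level ran from 6.12 to 12.17 in control mice and from 6.25 to 13.20 in ezetimibe mice. Of 8 stomach markers 3 were detected, at 6.99 to 11.46 and 6.35 to 11.68, with Gkn1, Gkn2, Muc5ac, Atp4a and Atp4b not detected. The detected hepatocyte markers stood at 8.66 to 9.19 and 8.60 to 9.39. T and NK cell markers (5 of 7 detected) stood at 7.77 to 9.26 in control and 7.68 to 9.09 in ezetimibe mice, goblet cell markers (4 of 5) at 12.79 to 13.17 and 12.64 to 13.18, and adipocyte markers (5 of 8) at 6.15 to 6.63 and 5.80 to 6.50. Median log2 fold changes were 0.74 for the stomach, 0.53 for the pancreas and -0.46 for the T and NK cell list, then 0.028 for hepatocyte, -0.033 for enterocyte, -0.027 for goblet cell and -0.016 for adipocyte markers. The part of these cell types in the members' values was not tested. None of these markers passed the test between groups. With the pancreas level as a covariate 0 of the 19 member probes passed, against 0.261% of all tested probes. Since 0 passed without that covariate too, this count does not measure the part of the pancreas in the members' values.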

How the data were processed

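The authors deposited a table of unnormalized values that holds, per the file headers, a linear intensity (the mean bead signal) with its detection p-value for each of 25697 probes and 13 arrays. The deposited processed values of the same arrays are intensities on a linear scale. As the design text of the series describes, the authors used quantile normalization and Combat, a batch correction, then a prefilter on fold change and the IBMT statistic, which was not run here. The export software is not stated in the sources. Array and slide positions came from the array names.

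From the unnormalized table, log2 levels were made with neqc of limma 3.58.1 in R 4.3.3, which corrects background from detection p-values, adds an offset (16) and normalizes by quantiles. The 11887 probes that 5 or more of the 13 arrays detected, at a detection p under 0.05, were fitted with lmFit on slide and group and eBayes with an intensity trend. Adjusted p under 0.10 (Benjamini-Hochberg over all tested probes) was the threshold. Precision is limited by the number of arrays. The labels call each array a biological replicate. On simulated data of this size with independent normal noise, 57 of 100 probes changed 1.41-fold and 97 of 100 changed 2-fold were called. The simulation called 169 probes, 15 of them falsely, against 30 called in the data. With fewer calls the adjusted threshold is stricter, so these shares are likely too high for the data. Same-numbered control and ezetimibe mice did not deviate together (r -0.42 to 0.36 over 5 pairs, 2 of them over 0.1), so numbers were not taken to pair the mice.

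Members and lists were chosen with earlier results of these data known. Every detected member is named. For the 4 genes of each family with the smallest p and the 2 brightest, each ezetimibe value is given beside the lowest, median and highest control. Values of the ezetimibe mice and the control range for Ugt2b34 and for further probes of Ugt1a6a and Sult2b1 were added after they were seen. Of the partner genes, up to 2 per list with the smallest p are named. Different probes were tested apart, and the brightest stood for a gene in medians. Symbols were updated through RefSeq (GRCm38.p6). Correlations were computed in Python 3.11.15. Alternatives covered background correction, scaling, the deposited processed values, the detection filter, slide, position, variance moderation, a replicate block, pancreas markers, the threshold and leaving out each array.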

Additional observations from a re-analysis of the deposited data

Results flagged for a closer look

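Among the 38 groups of arrays examined (19 detected probes in 2 groups), 1 value stood apart from the rest of its group. For the Sult2b1 probe ILMN_2766827, ezetimibe 3 read 8.40, while the next ezetimibe mouse read 8.66, a gap of 0.711 of the whole range of the group. The raw signal behind it was 417.6. Chance alone gives such a gap in about 1 of 20 groups, so 1 in 38 is no more than that rate. The other Sult2b1 probes did not set that mouse apart: ILMN_2686353 read 11.85 and ILMN_2791179 read 10.81 in it. Without ezetimibe 3 the difference of ILMN_2766827 was -0.17, against -0.24 with all mice.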

How the results depend on the processing

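In each of the 34 other settings with a count, 0 member probes passed in limma, and of 605 values of single probes 0 passed and 43 changed sign. The family medians ran from 0.0014 (position as a covariate) to 0.37 (replicate block) for Ugt, -0.042 (slide 1 alone) to 0.28 (position) for Sult and -0.15 (without control 5 and ezetimibe 4) to 0.16 (median scaling) for Ces. The count of all probes past the threshold, 30, was 17 without a slide term, 6 on slide 1 alone, 10 on slide 2 alone and 81 where only probes with at least a 1.1-fold change were adjusted for (10 members among them, 0 called). It ran from 20 to 45 when each mouse was left out, 20 without ezetimibe 2 and 45 without control 6. With the replicate block, for numbers that do not pair the mice, it was 23, with 0 members.

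Changes of sign, all in probes not called, were as follows. Median scaling gave 0.080 for Ces3, 0.13 for Sult1d1 and 0.15 for Sult2b1 ILMN_2686353, with the median of all probes at 0.088. Without a slide term Sult2b1 ILMN_2791179 was -0.037. Slide 1 alone gave -0.13 for Sult1a1 and -0.046 for Sult2b1 ILMN_2791179. Slide 2 alone gave 0.016 for Ces3, 0.0056 for Sult1d1, 0.049 for Sult2b1 ILMN_2686353, -0.028 for Ugt1a6a ILMN_2418855 and -0.038 for Ugt2b34. Position as a covariate gave -0.024 for Sult2b1 ILMN_2791179, -0.011 for Ugt1a10 and -0.14 for Ugt1a6a ILMN_2418855. Array weights gave 0.024 for Sult2b1 ILMN_2686353. The replicate block gave -0.20 for Sult1a1, 0.11 for Sult1d1, 0.033 for Sult2b1 ILMN_2766827, 0.086 for Sult2b1 ILMN_2686353 and -0.11 for Ugt1a6a ILMN_1212835. Without control 4 and ezetimibe 4 Sult2b1 ILMN_2686353 was 0.030. Without control 5 and ezetimibe 4, the mice highest in pancreas markers after slide adjustment (chosen after seeing the data), Ces5 was -0.010, Sult2b1 ILMN_2791179 -0.0044 and Ugt1a10 -0.0074. Leaving out each mouse gave -0.28 to 0.14 for Ces3, -0.032 to 0.19 for Sult1a1, -0.059 to 0.048 for Sult1d1, -0.052 to 0.069 for Sult2b1 ILMN_2686353, -0.024 to 0.15 for Sult2b1 ILMN_2791179, -0.0057 to 0.20 for Ugt1a6a ILMN_2418855 and -0.0027 to 0.17 for Ugt1a6a ILMN_1212835. The cause of these changes was not tested.

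A detection p under 0.01 on all arrays left 16 member probes, without Sult4a1, Ugt1a2 and Ugt1a6a ILMN_1212835, which were detected on 10, 5 and 8 arrays. With 5 ezetimibe mice, a change of 1.41-fold was called for 57 of 100 simulated probes.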

Other observations

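The scatter of Ces3 among ezetimibe mice was looked at after its values were seen. Its SD was 0.685 in the 5 ezetimibe mice and 0.169 in the 8 controls, a ratio of 4.04, while the median ratio over all tested probes was 0.935 and 0.0841% of them had a larger one. All 5 ezetimibe mice outside the control range, with some above and some below, occurred for 28 probes (0.236%). In the deposited processed values, 2 ezetimibe mice again lay above and 3 below every control, with SDs of 0.418 and 0.116 (ratio 3.60). The mean level of exocrine pancreas markers was 6.75 in ezetimibe 1 and 13.20 in ezetimibe 4, the mice high in Ces3, and 11.49, 10.67 and 6.25 in ezetimibe 2, 3 and 5, the mice low in it. Of 10 hepatocyte markers only Cps1 and Ttr were detected, while Alb, Ahsg, F2, Fgb, Serpina1a, Serpinc1, Apoh and Hpx were not. A mean of Cps1 and Ttr therefore cannot stand for the hepatocyte list. Among ezetimibe mice the mean level of Cps1 and Ttr was highest in the 2 mice high in Ces3, at 9.39 in ezetimibe 1 and 9.11 in ezetimibe 4. It was 8.60, 8.78 and 8.98 in ezetimibe 2, 3 and 5, and 8.66 to 9.19 in control mice. Controls 5 and 7, at 9.19 and 9.13, had Ces3 levels of 8.76 and 8.66. Among ezetimibe mice, T and NK cell markers were lowest in ezetimibe 1 and 4, at 7.73 and 7.68. They stood at 8.65, 7.81 and 9.09 in ezetimibe 2, 3 and 5. Control mice ran from 7.77 to 9.26, and control 6, at 7.77, had a Ces3 level of 8.91. In the enterocyte, goblet cell, stomach and adipocyte lists, ezetimibe 1 and 4 were neither both the highest nor both the lowest ezetimibe mice. The part of these markers in the scatter was not tested. Only 1 probe carries the name Ces3.

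Control 1 was the lowest of the 13 mice for 6 of the 14 detected genes (Ugt1a6a, Ugt2b34, Ugt2b35, Ugt2b36, Sult1d1 and Ces5), while it was the lowest for 6.61% of all tested probes. Without control 1 the difference was 0.23 for Ugt1a6a ILMN_2795317, 0.15 for Ugt2b34 and 0.18 for Ugt2b35, and none of these passed the threshold. This mouse, too, was singled out after its values were seen.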
